A study of Danio rerio with 6 samples.

Results

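The ETS transcription factors described here are the genes *etv2*, *fli1a*, *fli1b*, *erg*, *ets1*, *ets2*, *etv4*, *etv5a*, *etv5b* and *etv6*, taken by their symbol from the annotation of the zebrafish arrays. Of these 10 genes, 9 were measured, by 15 of the 75212 transcript clusters, and 13 of these clusters had distinct values. A transcript cluster is a set of probes that stands for a gene or for part of one. No cluster matched *ets1* by its symbol or by its older names, and this gene was not analysed here. RNA came from cells of embryos at the 2 somite stage of homozygous *drl:EGFP* zebrafish, whose EGFP is driven by the *draculin* (*drl*) regulatory element, so both fractions carried the transgene. Cells that excluded propidium iodide were sorted by their EGFP, and each collection pooled the embryos of a mass mating within one family of fish. There were 3 EGFP-positive and 3 EGFP-negative one-colour arrays, and the EGFP-negative fraction holds every other cell of the embryo, not one tissue.

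ETS factors share a DNA-binding domain that recognizes a GGAA core, and members of the family differ mainly in where they are expressed and in which signals act on them. In zebrafish, Etv2 is an early regulator of endothelial and blood precursors, and Fli1a, Fli1b, Erg and Ets1 are further ETS factors of the vessel lineage. Etv4, Etv5a and Etv5b belong to the Pea3 subfamily, whose genes are transcribed in response to FGF signalling and serve as a readout of it. Ets2 is a widely expressed factor that Ras and MAPK signalling act on, and Etv6 is a repressor of the family with a role in blood formation. The arrays set the reporter-positive cells, taken as lateral plate mesoderm in the study, against the remaining cells, and the vascular genes were also set against the FGF-responsive ones.

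The vascular regulators *etv2* and *fli1a* were higher in EGFP-positive cells, by 15.7-fold and 7.23-fold, while *fli1b* gave a low signal in both fractions. None of the 3 FGF-responsive genes passed the test, although all were bright in EGFP-positive and EGFP-negative cells alike. A gene was called at a Benjamini-Hochberg adjusted p under 0.09 from limma over all transcript clusters. By this rule 2 of the 9 genes were higher and 0 were lower, with 1 more gene lower at an unadjusted p under 0.05 (*ets2*) and 1 more higher (*etv5b*). At that unadjusted threshold 18.5% of all genes with a symbol passed, in either direction. Among all transcript clusters, 2.96% were called higher and 1.84% lower. Among all 25965 genes with a symbol, each taken at its brightest cluster, 4.12% were higher and 3.49% lower, with a median log2 difference of -0.0048, against a median of 0.07 over the 9 ETS genes. For any one gene, the smallest p that exact permutation of 3 arrays against 3 allows is 0.1 (two-sided). In sorted cells of mixed type, fewer cells that transcribe a gene and less RNA per cell cannot be told apart.

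**Figure D1:**
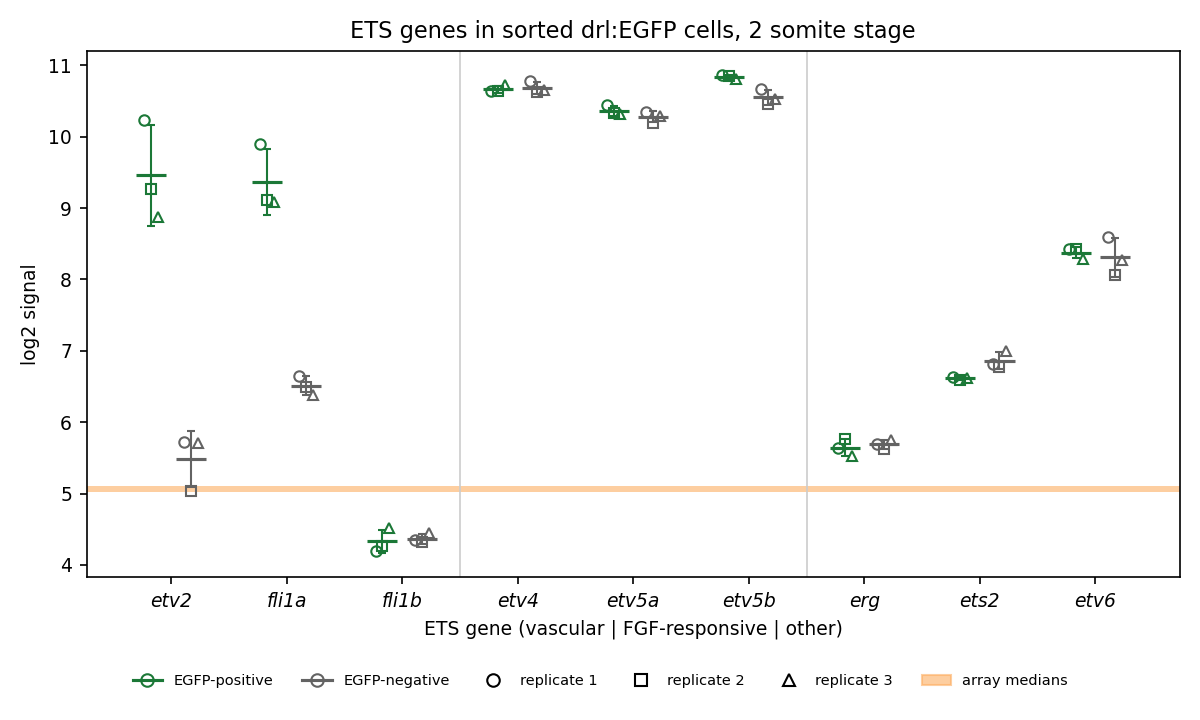
Log2 signal (y axis) of the 9 measured ETS genes (x axis) on 3 EGFP-positive arrays (green, left of each pair) and 3 EGFP-negative arrays (grey), with a symbol for each replicate, a line at the mean and a bar of 1 SD. The green symbols of *etv2* (8.87 to 10.24) and *fli1a* (9.09 to 9.89) lie far above the grey ones, whereas those of *etv4*, *etv5a* and *etv5b* lie within 10.20 to 10.87 in both fractions.

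The signal of *etv2* was 10.24, 9.26 and 8.87 on the EGFP-positive arrays 1, 2 and 3, against 5.72, 5.03 and 5.71 on the EGFP-negative arrays. Every EGFP-positive array stood above every EGFP-negative array, and the first EGFP-positive array was the highest. The mean was 9.46 ± 0.71 in EGFP-positive cells, against 5.49 ± 0.39 in EGFP-negative cells (SD, n = 3 each). This log2 difference of 3.97 (standard error 0.36) had a 95% interval from 3.12 to 4.82, or from 8.70-fold to 28.3-fold (adjusted p = 0.00184 from limma, and p = 0.1 by the exact two-sided permutation test). This was the fourth largest positive difference of all 75212 clusters. Its EGFP-negative signal lies close to the array medians of 5.02 to 5.10, and no detection call was made there, so the ratio is approximate. *etv2* is listed on the reverse strand of chromosome 16 (Zv9 16:44778270-44783337) and was measured by a single cluster of 19 probes.

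For *fli1a*, a regulator of endothelial and blood precursors that acts together with *etv2*, the signal was 9.89, 9.11 and 9.09 on the EGFP-positive arrays, against 6.65, 6.49 and 6.38 on the EGFP-negative arrays. The fractions did not overlap, and again EGFP-positive array 1 was the highest. The mean was 9.36 ± 0.46 in EGFP-positive cells, against 6.51 ± 0.13 in EGFP-negative cells (SD, n = 3 each), a log2 difference of 2.85 (standard error 0.22) with a 95% interval from 2.33 to 3.38 (adjusted p = 0.000991 from limma). Unlike *etv2*, *fli1a* had EGFP-negative signals more than 1 log2 unit above the array medians. It was measured by 26 probes in a cluster on the forward strand of chromosome 18 (Zv9 18:46987627-47051487).

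In EGFP-positive array 1 *etv2* was 1.17 and *fli1a* 0.79 log2 units above the mean of the other 2 EGFP-positive arrays. Over all 2228 clusters called higher the median of the same quantity was 0.04. For the 13 lateral plate markers this median was 0.11, and for the 15 measured partners of ETS factors, described below, it was 0.09. Among these partners array 1 was the highest EGFP-positive array for 8 genes, array 2 for 6 and array 3 for 1. The excess was not particular to the ETS genes, since *tal1* had 9.84, 8.53 and 8.03 on EGFP-positive arrays 1, 2 and 3. For *lmo2* these values were 10.64, 9.55 and 8.86. Within the EGFP-positive fraction the epidermis markers were lowest in array 1 for 8 of 10 genes, and the neural plate markers for 11 of 14 genes. The endoderm markers, mostly higher in EGFP-positive cells, were also lowest there for 5 of 7 genes. The part of these tissues in the spread of *etv2* and *fli1a* was not tested. Without this array the log2 difference was 3.58 for *etv2* and 2.59 for *fli1a*, and both calls were kept.

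The paralog *fli1b* had 2 clusters that overlap on chromosome 16 and are listed on opposite strands. The cluster of 16 probes on the reverse strand (Zv9 16:44803534-44809924) gave 4.20, 4.27 and 4.51 in EGFP-positive cells, against 4.34, 4.32 and 4.45 in EGFP-negative cells. The cluster of 25 probes on the forward strand (Zv9 16:44787501-44816341) gave 4.23, 4.34 and 4.11 in EGFP-positive cells, against 4.20, 4.49 and 4.17 in EGFP-negative cells. All of these values lie below the array medians, and the fractions overlapped in both clusters. The log2 differences were -0.04 (95% interval from -0.29 to 0.21, adjusted p = 0.91 from limma) and -0.06 (from -0.34 to 0.21, adjusted p = 0.87). At so low a signal, a difference in *fli1b* may not have been detectable. The forward-strand cluster begins 4.16 kb from the *etv2* cluster, and in the later assembly GRCz12tu *fli1b*, there named *fli1rs*, is likewise a direct coding neighbour of *etv2*, there named *etsrp*.

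*erg*, an ETS gene of endothelial and cartilage cells, was measured by a forward-strand cluster at Zv9 10:117105-123623. The values were 5.64, 5.76 and 5.52 in EGFP-positive cells, against 5.69, 5.62 and 5.75 in EGFP-negative cells. These values overlapped, and the log2 difference of -0.05 had a 95% interval from -0.27 to 0.18 (adjusted p = 0.88 from limma). A second cluster on the opposite strand gave -0.16 (adjusted p = 0.59 from limma). The signals of *erg* lie close to the array medians, so low expression in a few cells could have been missed.

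*ets2* lies next to *erg* on chromosome 10, with its forward-strand cluster at Zv9 10:143058-261703. Its signal was 6.64, 6.58 and 6.62 on the EGFP-positive arrays, against 6.81, 6.77 and 6.997 on the EGFP-negative arrays. Every EGFP-positive value was below every EGFP-negative value. The log2 difference was -0.24 with a 95% interval from -0.46 to -0.03, which did not pass after adjustment (adjusted p = 0.28 from limma, and p = 0.1 by the exact permutation test). Its reverse-strand cluster, which overlaps only 138 bp of the first, gave -0.04 (adjusted p = 0.89 from limma).

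*etv6* was represented by 3 clusters of unplaced sequence with the same 6 values, which count as one measurement. The signal was 8.43, 8.42 and 8.28 in EGFP-positive cells, against 8.60, 8.06 and 8.28 in EGFP-negative cells. The EGFP-positive values fell inside the EGFP-negative range, and the log2 difference was 0.07 with a 95% interval from -0.27 to 0.41 (adjusted p = 0.89 from limma). Of the 9 genes, 3 had EGFP-positive arrays wholly above the EGFP-negative ones and 1 wholly below, while 11.7% and 8.49% of all transcript clusters did so.

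*etv4*, *etv5a* and *etv5b* gave bright and nearly equal signals in both fractions. *etv1*, counted below with further family genes and FGF targets, averaged 5.25 in EGFP-positive cells, against 5.19 in EGFP-negative cells, close to the array medians. For *etv4* the values were 10.64, 10.64 and 10.72 in EGFP-positive cells, against 10.78, 10.62 and 10.65 in EGFP-negative cells. They overlapped fully, with a log2 difference of -0.02 and a 95% interval from -0.22 to 0.18 (adjusted p = 0.95 from limma). For *etv5a* the values were 10.45, 10.33 and 10.32 in EGFP-positive cells, against 10.35, 10.20 and 10.29 in EGFP-negative cells. These overlapped too, with a log2 difference of 0.09 and an interval from -0.12 to 0.29 (adjusted p = 0.73 from limma). The dimmer reverse-strand cluster of *etv5a* gave 0.14 (adjusted p = 0.65 from limma).

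For *etv5b* the signal was 10.87, 10.84 and 10.80 in EGFP-positive cells, against 10.67, 10.45 and 10.53 in EGFP-negative cells. All EGFP-positive arrays were above all EGFP-negative ones, by a small margin. The log2 difference of 0.29 corresponds to 1.22-fold (95% interval from 1.05-fold to 1.41-fold) and did not pass after adjustment over all clusters (adjusted p = 0.19 from limma, and p = 0.1 by the exact permutation test). It passed narrowly when all clusters of every gene were averaged and each gene was tested once (adjusted p = 0.087 from limma), with no change in the value of *etv5b* itself. Over the 3 FGF-responsive genes the 95% intervals of the single ratios span 0.859 to 1.41. The positions are Zv9 12:29107126-29139725 on the forward strand for *etv4*, 9:23665132-23682372 on the forward strand for *etv5a* and 6:13942620-13950743 on the reverse strand for *etv5b*.

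**Figure D2:**
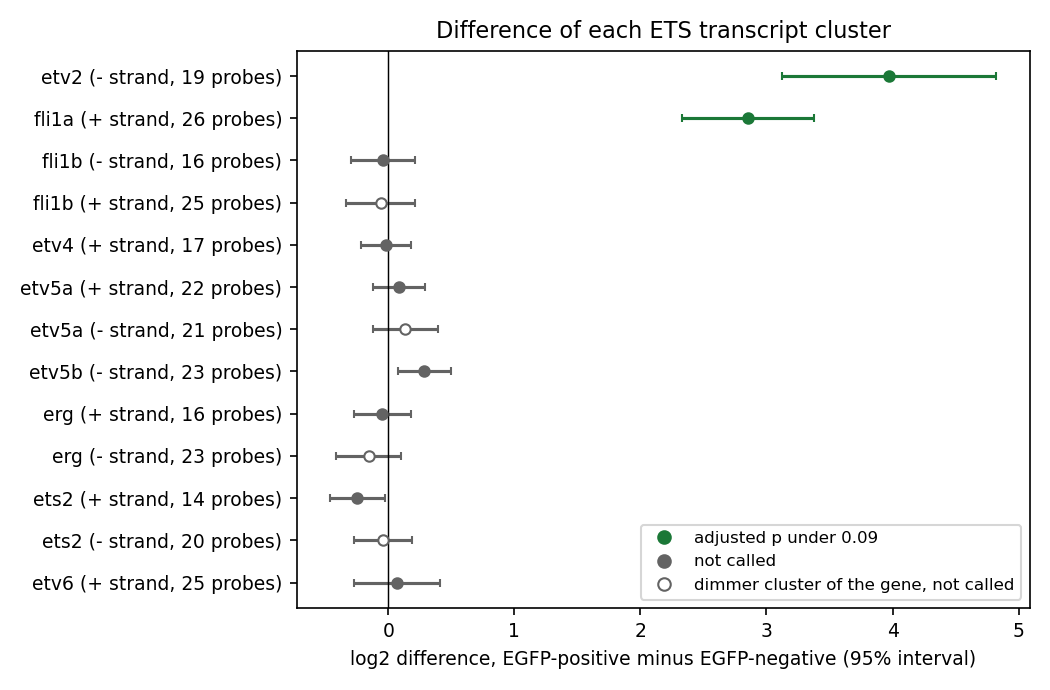
Log2 difference between the EGFP-positive and EGFP-negative mean (x axis) with its 95% interval for each of the 13 distinct ETS transcript clusters (y axis), green where called and open where a brighter cluster of the gene exists. The intervals of *etv2* (3.12 to 4.82) and *fli1a* (2.33 to 3.38) lie far from 0, and those of *etv5b* and of the forward-strand *ets2* cluster exclude 0 by little.

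To set the vascular against the FGF-responsive genes, the difference between both signals was taken on each array. A shift shared by a whole array cancels in it. The gap within 1 fraction still holds the brightness of the probes of both genes, so only its change between the fractions is read. *etv2* was 1.21 ± 0.74 log2 units below *etv4* in EGFP-positive cells and 5.20 ± 0.35 below it in EGFP-negative cells (SD, n = 3 each). *fli1a* was 1.47 ± 0.43 below *etv5b* in EGFP-positive cells and 4.04 ± 0.10 below it in EGFP-negative cells. Over the 6 pairs of *etv2* or *fli1a* with an FGF-responsive gene, the EGFP-positive minus EGFP-negative value ran from 2.57 to 3.99. Since the FGF-responsive genes differed by only -0.02 to 0.29, these values largely repeat the single differences of *etv2* and *fli1a*. The pairs therefore add no independent result. In each of these pairs the fractions did not overlap, with p = 0.1 in the exact two-sided permutation test, the smallest that 3 arrays against 3 allow, and 0.14 after Benjamini-Hochberg adjustment over 11 pairs. The remaining 5 pairs hold *fli1b* and are not read as contrasts, since its signal lies below the array medians in both fractions. Of these, the 3 with an FGF-responsive gene gave -0.33 to -0.02.

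Other genes of the ETS family had smaller log2 differences than *etv2* and *fli1a*. Of 24 further family genes searched, 17 were measured, of which 2 were higher and 0 lower, with a median log2 difference of 0.09. At an unadjusted p under 0.05, 5 of the 17 passed, beside 18.5% of all genes with a symbol. *elk3*, a ternary complex factor with a role in vessel formation, was 2.50-fold higher, with a mean signal of 7.998 ± 0.30 in EGFP-positive cells, against 6.68 ± 0.22 in the EGFP-negative fraction (SD, n = 3 each, adjusted p = 0.010 from limma). *erf*, a repressor of ETS targets that is inactivated by ERK, was 1.38-fold higher (adjusted p = 0.037 from limma). The call of *erf* was lost without EGFP-negative array 2 or 3 or EGFP-positive array 1 or 3, at an adjusted p of up to 0.13. The myeloid factor *spi1b* had a mean of 4.55 in EGFP-positive cells, against 4.61 in EGFP-negative cells, below the array medians.

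A cluster that the annotation labels ELK3 in capitals, singled out after its values were seen, lies on the reverse strand of chromosome 18 (Zv9 18:46855246-46863094), 125 kb before the start of *fli1a*. Its signal was 7.34, 7.33 and 7.24 in EGFP-positive cells, against 5.50, 5.80 and 5.55 in EGFP-negative cells. The fractions did not overlap, and the cluster was 3.22-fold higher, a log2 difference of 1.69 with a 95% interval from 1.44 to 1.94 (adjusted p = 0.000452 from limma). In GRCz12tu *elk3* lies on chromosome 4, and *ets1* is the coding gene that directly precedes *fli1a* on chromosome 18. Which transcript the probes labelled ELK3 detect was not tested, and the cluster was not counted with *ets1* or with *elk3*. Among other labels in capitals, the ETV5B cluster on the strand opposite to *etv5b* and the ETV7 cluster had log2 differences of 0.07 and -0.27 (adjusted p of 0.84 and 0.41 from limma).

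Partners of ETS factors in blood and vessel precursors moved in both directions. Of 15 measured partner genes, 5 were higher and 2 lower, with a median log2 difference of 0.16. At an unadjusted p under 0.05 from limma, 9 of the 15 passed, beside 18.5% of all genes with a symbol. *tal1*, a helix-loop-helix regulator of the haemangioblast, was 14.5-fold higher and its partner *lmo2* was 8.27-fold higher. The EGFP-negative mean of *tal1*, at 4.95, lies below the array medians, so its ratio is approximate. With all clusters of a gene averaged, the log2 difference was 1.69 for *lmo2* in place of 3.05, and its call was kept. *gfi1b*, a transcriptional repressor that acts in the erythroid lineage, was 2.36-fold higher. *foxc1a*, a forkhead factor that acts with Etv2 on shared endothelial enhancers, was 1.90-fold higher, and *foxc1b* was 1.53-fold higher (adjusted p = 0.077 from limma). The call of *foxc1b* was lost without EGFP-negative array 2 or 3 or EGFP-positive array 1 or 2, at an adjusted p of up to 0.22, and after a further quantile normalization (adjusted p = 0.092 from limma). Its log2 difference was 0.33 in place of 0.61 with its clusters averaged. *gata2a*, a zinc finger factor of haematopoietic and vascular precursors, and *sox18*, a SoxF factor of endothelium, were lower, at -0.99 and -1.08 on the log2 scale. The EGFP-positive mean of *sox18*, at 5.12, lies close to the array medians, so its difference is approximate.

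Genes that receive ETS input in endothelium were mostly close to the array medians. Of 25 measured genes, *erg* among them, 3 were higher and 1 was lower, with a median log2 difference of -0.05 and a median signal of 5.09 on the EGFP-positive side, against 5.08 in EGFP-negative cells. At an unadjusted p under 0.05 from limma, 8 of the 25 passed, beside 18.5% of all genes with a symbol. The 3 that were higher were *nrp1b*, a co-receptor of Vegf, at 9.09-fold, *tie1*, a receptor tyrosine kinase, at 3.96-fold, and *vwf*, which encodes a blood clotting factor, at 2.67-fold. The ratios of *nrp1b* and *tie1* are approximate, since their EGFP-negative means of 4.91 and 5.14 lie below or close to the array medians. The *vwf* cluster has only 10 probes and lies on a short unplaced sequence. The call of *vwf* was lost without EGFP-negative array 3 or EGFP-positive array 1, at an adjusted p (limma) of up to 0.096. *dusp5*, a phosphatase of ERK, was lower by a log2 difference of -0.89, and its call was lost without EGFP-negative array 2 or any one EGFP-positive array, at an adjusted p of up to 0.13. With its clusters averaged the difference was -0.47. The EGFP-positive mean of *dusp5*, at 4.97, lies below the array medians, so its difference is approximate. The vascular cadherin *cdh5* had a signal of 5.17 ± 0.17 in EGFP-positive cells, against 4.79 ± 0.16 in the EGFP-negative fraction (SD, n = 3 each, adjusted p = 0.22 from limma). The Vegf receptor *kdrl* averaged 5.24 in EGFP-positive cells, against 5.29 in EGFP-negative cells.

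**Figure D3:**
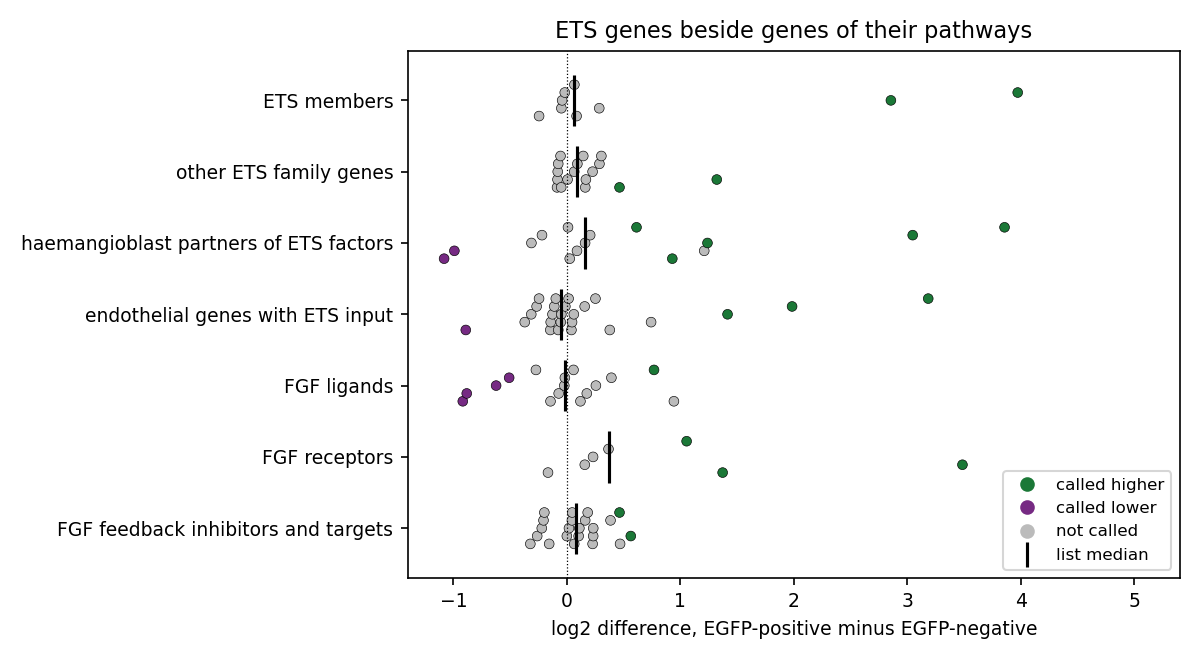
Log2 difference between EGFP-positive and EGFP-negative cells (x axis) of each measured gene in 7 lists (y axis), coloured by call, with a black bar at the median of each list. *etv2* (3.97) and *fli1a* (2.85) stand apart from the other 7 ETS genes, and the medians of the lists run from -0.05 for endothelial genes to 0.37 for FGF receptors.

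In the FGF pathway, which drives transcription of the Pea3 subfamily, the called ligands were mostly lower and the called receptors were higher. Of 16 measured ligands, 4 were lower and 1 was higher in EGFP-positive cells. *fgf3*, *fgf8a* and *fgf4* were lower by log2 differences of -0.92, -0.62 and -0.51, and *fgf8a* had a signal of 9.21 ± 0.065 in EGFP-positive cells, against 9.83 ± 0.047 in the EGFP-negative fraction (SD, n = 3 each, adjusted p = 0.0087 from limma). *fgf24* was lower and *fgf10a*, a ligand of limb and fin buds, was higher, but neither call held without certain arrays. The call of *fgf24* was lost without any one array other than EGFP-positive 3 (adjusted p of up to 0.14 from limma), and that of *fgf10a* without any one EGFP-negative array or EGFP-positive array 2 (up to 0.23). Of 7 receptors, 3 were higher and 0 lower, namely the kinase-deficient receptors *fgfrl1b* at 11.2-fold and *fgfrl1a* at 2.59-fold, and *fgfr2* at 2.08-fold. At an unadjusted p under 0.05 from limma, 4 of the 7 receptors and 6 of the 16 ligands passed, beside 18.5% of all genes with a symbol.

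Feedback inhibitors and further targets of FGF signalling were listed as genes that respond to FGF, as *etv4*, *etv5a* and *etv5b* do. Few of them were called. Their median absolute log2 difference was 0.20, beside 0.12 over all genes with a symbol. The listed genes were bright, with a median signal of 9.67, and 21 of 22 lay above the median of all transcript clusters. The 2 values are thus not matched for signal, and the part of brightness in their difference was not tested. Of 22 measured genes, 2 were higher and 0 lower, the median log2 difference was 0.08, and the values ran from -0.32 to 0.56. At an unadjusted p under 0.05 from limma, 7 of the 22 passed in either direction, beside 18.5% of all genes with a symbol. *dusp6*, an ERK phosphatase induced by FGF, had a signal of 10.98 ± 0.039 in EGFP-positive cells, against 10.75 ± 0.065 in the EGFP-negative fraction (adjusted p = 0.24 from limma). *spry4*, an inhibitor of Ras signalling, had 9.68 ± 0.12 in EGFP-positive cells, against 9.57 ± 0.10 in EGFP-negative cells (adjusted p = 0.71). *il17rd*, an antagonist of FGF receptors also known as Sef, had 11.11 ± 0.16 in EGFP-positive cells, against 10.73 ± 0.13 in EGFP-negative cells (adjusted p = 0.18, each SD with n = 3). *flrt3*, a transmembrane protein that binds FGF receptors, was 1.48-fold higher, and *erf*, described above, was the other called gene. Without EGFP-positive array 1 neither was called, and without EGFP-positive array 2 *flrt3* was not called, with adjusted p from limma between 0.092 and 0.13.

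Genes with a profile close to that of *etv2* over the 6 arrays were sought among 15368 other genes with an established symbol, by the root mean square difference of log2 values centred on the mean of each gene. The closest was the cardiac T-box gene *tbx20* at 0.20 log2 units, followed by *tal1* at 0.27, the homeobox gene *mnx2b* at 0.40, the protocadherin gene *pcdh12* at 0.41 and *fgfrl1b* at 0.41. For *tal1*, for example, the signal was 9.84, 8.53 and 8.03 in EGFP-positive cells, against 5.45, 4.67 and 4.72 in EGFP-negative cells. In all 5 genes EGFP-positive array 1 was the highest and array 3 the lowest of their fraction, as for *etv2*. The genes were chosen for closeness to *etv2* on these same arrays, so this shared order is favoured by the choice and is no separate result. Array 1 was also the highest for 952 of all 2228 clusters called higher. Array 3 was the lowest for 10 of 13 lateral plate markers. For *etv5b* the closest were *pdp1* at 0.019, *nucb2a* at 0.021, and *rbm19*, *shoc2* and *larp1b* at 0.023, with log2 differences of 0.26 to 0.30, none of which passed the test. The distance grows with the range of a profile, and *etv5b* ran only from 10.45 to 10.87, against 5.03 to 10.24 for *etv2*. The smaller distances to *etv5b* therefore do not mean a closer likeness. Both sets of likeness rest on 6 arrays that share their sort and their processing.

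**Figure D4:**
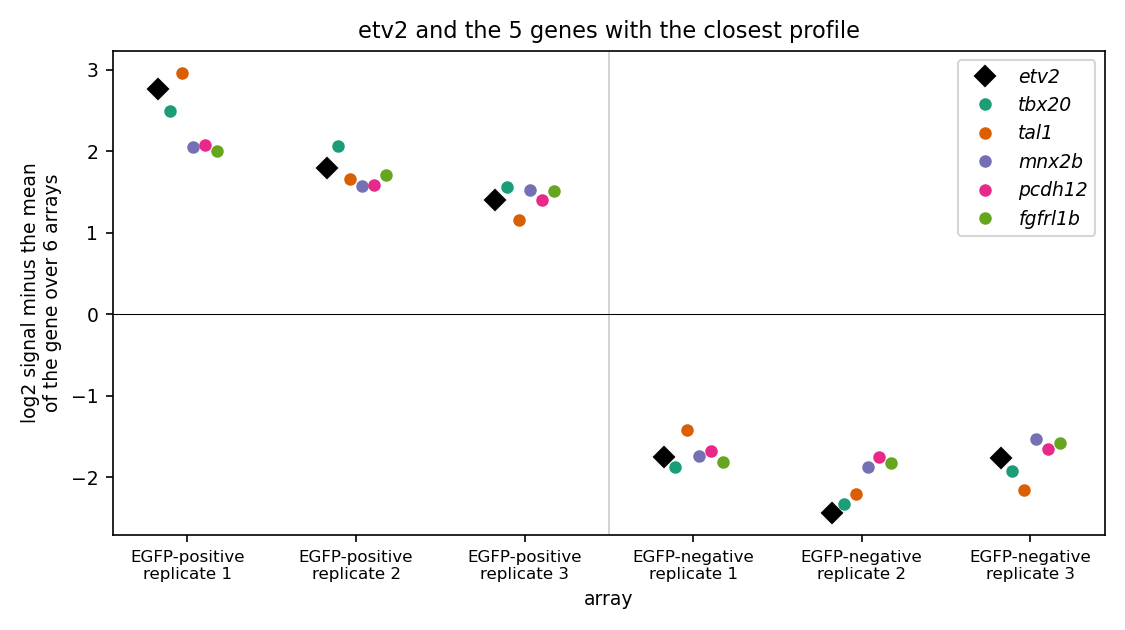
Log2 signal minus the mean of the gene over 6 arrays (y axis) for *etv2* (black diamonds) and the 5 genes with the closest profile, on each EGFP-positive array (left) and EGFP-negative array (right). All 6 genes are highest in EGFP-positive replicate 1, which their choice by closeness to *etv2* on these arrays favours. *tbx20* follows *etv2* with a root mean square difference of 0.20.

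The labels of the fractions were checked with marker genes. *drl* was 12.4-fold higher in EGFP-positive cells, and 12 of 13 lateral plate markers were higher. Of 7 endoderm markers 6 were higher, with a median log2 difference of 2.55, beside a median of 3.64 for the lateral plate markers. *gata5* is counted in both of these lists. The lateral plate list also holds *tal1*, *lmo2*, *tie1* and *tbx20*, which are reported above, so this check is not independent of those results. Of 14 neural plate markers 10 were lower and of 10 epidermis markers 8 were lower, with medians of -1.64 and -2.30. Over the alternative settings the epidermis markers called lower numbered 6 to 10. The median epidermis signal was 8.04 to 8.79 on the EGFP-positive arrays and 10.5 to 10.7 on the EGFP-negative arrays. Of 8 erythroid markers 3 were higher. None of 8 myeloid markers passed in limma, with 1 at an unadjusted p under 0.05, beside 18.5% of all genes with a symbol. Over all genes with a symbol, 4.12% were called higher and 3.49% lower. Of 11 paraxial mesoderm and tailbud markers, 2 were higher and 1 was lower, with 4 higher without EGFP-negative array 1 and 2 lower under some other settings. The part of these tissues in the values of the ETS genes was not tested.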

How the data were processed

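Sorted EGFP-positive and EGFP-negative cells were profiled on 6 ZebGene arrays of Affymetrix. The deposited log2 signals had been background corrected (MAS) and normalized by RMA, summarized per gene, by the authors in ExpressionConsole. The chips follow the Zv9 annotation. These values were used without further scaling. The other deposited table gave symbols, positions and numbers of probes. Its columns of the authors' own comparison (fold changes, test statistics and p-values) were not used. Precision is limited by the number of arrays, which have no depth.

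The fractions were compared by lmFit and eBayes in limma 3.58.1 under R 4.3.3, two-sided, over all 75212 transcript clusters, without a block, at the false discovery rate of 0.09 given in the methods. The methods name siggenes, which was not run. A gene was represented by its brightest cluster by the mean of the 6 arrays, and other clusters of the ETS genes are given beside it. Of 185 listed gene names 169 were matched. Older names in a table for GRCz12tu, used for names and neighbours only, gave the match for 12 list entries. Here a gene is counted in every list that holds it. Members, lists and tests were chosen with earlier results of these data known. Named genes were all members, up to 3 called genes with the largest difference in each direction in each list, and the 5 closest profiles. Not all of these are reported. Named outside this rule were *foxc1a*, *foxc1b*, *fgf4*, *etv1*, *spi1b*, *cdh5*, *kdrl*, *dusp6*, *spry4*, *il17rd*, *krt8*, *drl* and the labels in capitals. These were picked after their values were seen. The procedure was tested on simulated data. Tables and plots were made with Python 3.11.15, pandas 2.3.3 and matplotlib 3.10.9. The replicates are separate collections, and the methods describe the sorting of these collections into both fractions. Whether equal numbers stand for one collection is not given in the labels. Whether the arrays shared a batch is not given in the sources used here.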

Additional observations from a re-analysis of the deposited data

How the results depend on the processing

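Both calls among the ETS genes were kept under every alternative run. The log2 difference of *etv2* ran from 3.58 to 4.27 and that of *fli1a* from 2.59 to 2.99 with single arrays left out. No gene was lower under any of these settings. The one call that changed was that of *etv5b*, which passed (log2 difference 0.29, adjusted p = 0.087 from limma) when the clusters of each gene were averaged, giving 3 ETS genes higher in place of 2. It did not pass with adjustment over genes with a symbol alone (adjusted p = 0.10 from limma), and the cause was not tested. With a replicate block the 2 calls were kept, at an adjusted p of 0.0062 for *etv2* and 0.0041 for *fli1a* from limma, and 1745 clusters were higher and 1074 lower. Correlations of deviations between equally numbered arrays were -0.03, 0.04 and 0.09. With 3 arrays in each fraction, these cannot decide whether equal numbers share a collection. The main fit took no pairing. Leaving out single arrays gave 1275 to 2034 clusters higher and 874 to 1118 lower, against 2228 and 1384 with all arrays. The higher calls were fewest without EGFP-negative array 2 (1317) or 3 (1462) or EGFP-positive array 1 (1341) or 2 (1275), and the lower calls without EGFP-positive array 1 (874) or 2 (922). The cause of these falls was not tested beyond the smaller number of arrays. Over all settings the FGF feedback and target genes called higher numbered 0 to 5, against 2 in the report, and the FGF ligands called higher 0 to 2, against 1. The block also ended the calls of *erf*, *fgf10a*, *foxc1b*, *vwf* and the epidermis marker *krt8*. Paraxial mesoderm and tailbud markers called lower numbered 1 to 2, and 2 under an intensity trend, a further quantile normalization, a filter on low values, adjustment over genes with a symbol, identical clusters counted once and averaged clusters. *fli1b* was not tested with a filter on low values since it lies below the array medians, and a second cluster existed for *fli1b*, *erg*, *ets2* and *etv5a* only. Of 2388 repeats for listed genes outside the members, 43 lost a call, 37 gained one and 0 were reversed. Scaling moved the median of all clusters by less than 0.1 on the log2 scale. The dim signals of *fli1b* and *erg* limit what could be detected.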
